A study of Mus musculus with 80 samples.

Results

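The retinoid X receptors (RXRs) and 7 of the nuclear receptors that dimerize with them were examined as genes that RXR might itself occupy in mouse liver. RXRα, RXRβ and RXRγ, encoded by Rxra, Rxrb and Rxrg, are the shared partners of a family of ligand-activated transcription factors. Their partners here were the fatty acid sensors PPARα and PPARδ (Ppara, Ppard), the oxysterol receptors LXRβ and LXRα (Nr1h2, Nr1h3), the bile acid receptor FXR (Nr1h4), the retinoic acid receptor RARα (Rara) and the thyroid hormone receptor TRβ (Thrb). Such heterodimers bind repeats of the hexamer AGGTCA, and the spacing of the repeats favors one partner over another. In liver they control lipid, bile acid and glucose metabolism.

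The 10 genes were chosen by name, and each was given a window that ran from 5 kb upstream to 1 kb downstream of the gene (GENCODE M21 annotation, mm10). They were 10 of 21938 protein-coding genes with such a window. Every peak that overlapped a window by at least 1 bp was taken. RXR ChIP-Seq peaks came from 40 livers, 5 in each of 8 groups, of male mice aged 5 months that had been on their diet for 12 weeks. WT mice were C57BL6/J. KO mice lacked PPARγ in the liver through an albumin promoter-driven Cre and loxP-flanked Pparg, and the labels give them the same strain. Mice of each genotype received a low-fat control diet (Control) or a high-fat diet (HFD), either alone or with pioglitazone, a drug that activates PPARγ (Pio and HFD-Pio). The WT mice carried neither Cre nor loxP sites, so that loss of PPARγ cannot be told apart from those alleles in any comparison of genotypes. The antibody recognizes RXRα, RXRβ and RXRγ. The labels name it for 25 ChIP samples and name none for the other 15, which are KO Pio, KO HFD and KO HFD-Pio, although their titles say RXR.

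Depth and calling differed between genotypes, and this touches every comparison of KO with WT livers. WT libraries kept 2.04 to 4.26 megatags after removal of duplicates and KO libraries 0.628 to 1.06 megatags. The caller's threshold was a p of 0.001 for WT and a q of 0.05 for KO livers. In a KO library 84.4% (median) of the peaks had their summit in an annotated exon, against 11.2% in a WT library. Within WT this share was 1.59% to 7.71% in Control, 1.69% to 2.42% in HFD, 31.6% to 58.6% in Pio and 14.6% to 59.3% in HFD-Pio. The share thus differed with Pio as well, and its part in the comparisons with Pio was not tested. Exons made up 9.55% of the bases of all gene windows. The peak caller's fragment length was 45 to 48 bp in 6 WT libraries (3 WT Pio and 3 WT HFD-Pio) and 119 to 292 bp in the other 34. These 6 had a peak in 19.5% to 38.3% of all gene windows, and the other 4 libraries of the same groups in 4.27% to 14.2%. Genotype, depth and cutoff cannot be told apart. Peak lists do not measure expression, so the tissue label could be checked only through exons of marker genes. Among 7 hepatocyte markers 1 or 2 had an exonic peak in each KO liver, with Alb at 0 in all 20. In WT livers 0 to 4 had one in Control (median 0) and 0 in each of the other 15. Among 7 neural markers 3 to 5 had one in each KO liver, while 0 had one in WT Control or WT HFD livers and 0 to 3 in WT livers given Pio. Among 5 markers of intestinal epithelium 0 to 3 had one in WT Pio (median 2), 0 to 2 in WT HFD-Pio (median 2), 0 in WT Control and WT HFD and at most 1 in KO livers. The part of these markers' tissues in the comparisons with Pio was not tested.

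RXR peaks at these genes were few and held few tags, as did peaks in gene windows in general. The 40 livers gave 122 peaks in the 10 windows, 25 in WT and 97 in KO livers. Of the 97 KO peaks, 72 lay in the Rxrb window. Fold enrichment, which divides the ChIP pileup at the summit by the background expected from input, was 2.66 to 5.22 in WT (median 3.52) and 2.69 to 7.50 in KO livers (median 4.24). The medians of all peaks in gene windows were 3.74 in WT and 4.06 in KO, and the highest were 44.6 and 72.4. The pileup, the number of overlapping tags at a summit, was 2 to 6 in WT and 2 to 8 in KO, with a median of 4 in each. Over all peaks in gene windows its median was 3 in WT and 4 in KO. No WT peak and 14 KO peaks had a −log10 q of 5 or more. Of the 25 WT peaks, 17 had a −log10 q below 1.3 and so would have missed the cutoff used in KO livers. The shares of all peaks at these cutoffs were not counted.

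**Figure D1:**
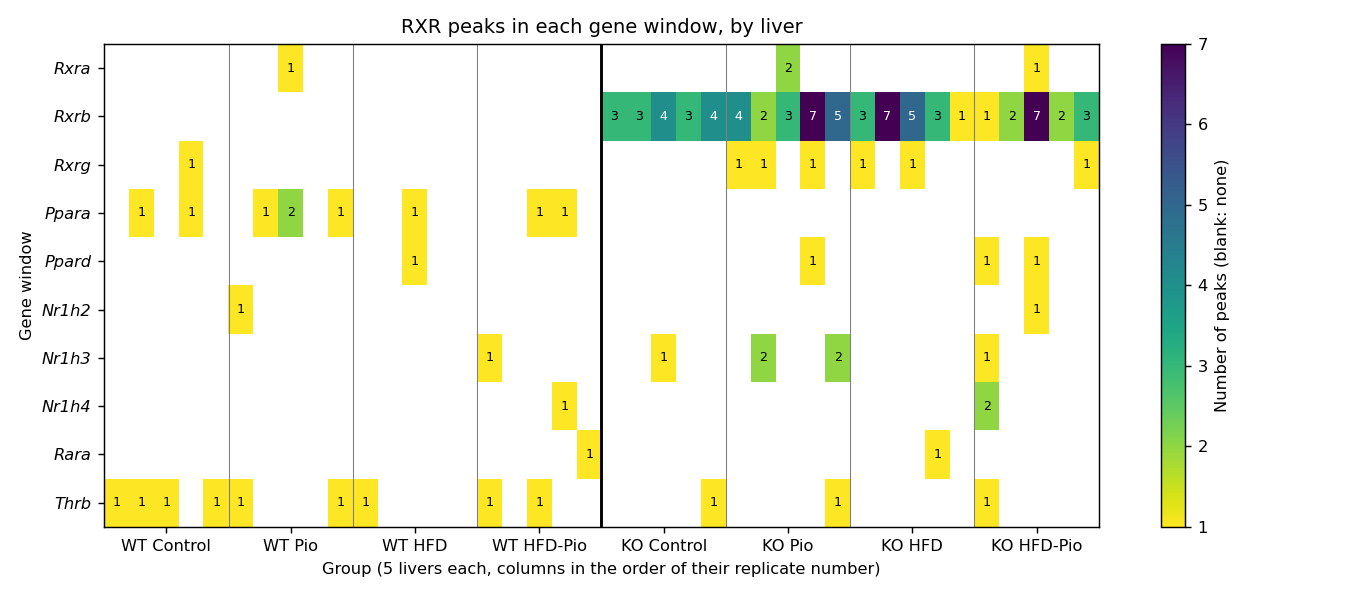
Number of RXR peaks in each gene window (rows) in each of the 40 livers (columns, 5 per group, WT left of the heavy line and KO right of it). Rxrb has 1 to 7 peaks in each of the 20 KO livers and none in WT livers, Ppara has peaks only among WT livers, and the other 8 windows have scattered single calls or pairs.

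The peaks formed 55 sites when those that overlapped between livers were merged, and 42 of these (76.4%) were called in 1 library, close to the 75.4% of all 215015 sites. Only 4 sites outside the Rxrb window were called in more than 1 library. No site was called in both a WT and a KO liver. Such sites were few everywhere, since 118385 of all 215015 sites were called in WT and 104532 in KO livers. Sites called in at least 3 livers of a group numbered 4, and all 4 lay in the Rxrb window.

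The sequences at the summits that matter most are given here, each as 201 bases of GRCm38 (the mm10 build, plus strand) centered on the summit. The first is the only site outside exons that was called in 3 livers, at chr14:17924361-17924561 in a Thrb intron. The next is the strongest intronic peak of Ppara, at chr15:85744683-85744883. Then follow the only WT peaks of Rxra (chr2:27744516-27744716) and Rxrg (chr1:167616382-167616582), both intronic. The last pair show what recurred in KO livers, namely the strongest site inside Rxrb, at a coding exon (chr17:34035661-34035861), and the most often called site with all its summits in coding exons of the neighboring gene Slc39a7 (chr17:34030557-34030757). Capitals mark repeated bases and, near the start of the Rxrg sequence, the hexamer AGGTCA.
Thrb intron: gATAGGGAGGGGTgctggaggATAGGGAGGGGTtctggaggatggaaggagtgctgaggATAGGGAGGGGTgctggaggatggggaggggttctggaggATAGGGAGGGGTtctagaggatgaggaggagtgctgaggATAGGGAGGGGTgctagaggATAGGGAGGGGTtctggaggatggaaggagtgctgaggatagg
Ppara intron: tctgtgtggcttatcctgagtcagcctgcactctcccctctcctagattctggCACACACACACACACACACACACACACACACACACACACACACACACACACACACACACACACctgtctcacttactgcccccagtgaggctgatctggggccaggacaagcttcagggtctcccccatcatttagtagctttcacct
Rxra intron: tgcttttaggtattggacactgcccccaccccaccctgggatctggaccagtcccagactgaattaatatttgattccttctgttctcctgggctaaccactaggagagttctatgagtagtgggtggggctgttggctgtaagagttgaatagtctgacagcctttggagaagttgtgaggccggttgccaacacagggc
Rxrg intron: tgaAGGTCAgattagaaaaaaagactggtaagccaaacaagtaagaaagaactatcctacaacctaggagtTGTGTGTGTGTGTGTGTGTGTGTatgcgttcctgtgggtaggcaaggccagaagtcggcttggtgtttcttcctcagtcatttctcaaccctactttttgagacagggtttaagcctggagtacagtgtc
Rxrb coding exon: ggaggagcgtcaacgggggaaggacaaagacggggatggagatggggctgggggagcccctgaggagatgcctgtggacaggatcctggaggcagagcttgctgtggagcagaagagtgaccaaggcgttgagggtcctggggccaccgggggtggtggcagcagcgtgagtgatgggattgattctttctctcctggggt
Slc39a7 coding exon: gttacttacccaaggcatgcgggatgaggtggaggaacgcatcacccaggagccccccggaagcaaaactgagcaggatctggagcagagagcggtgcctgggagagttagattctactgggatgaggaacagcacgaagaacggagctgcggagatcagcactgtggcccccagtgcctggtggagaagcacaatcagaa

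The Thrb site lay in a tandem repeat with a period of 20 bp, in which the marked run of 12 bases occurred 6 times. At a shift of 20 bp, 65.2% of its bases matched, and 95.8% of all sites had a lower best match. The Ppara intronic summit lay in a CA run of 63 bases and the Rxrg summit beside a TG run of 23. Windows with a dinucleotide run of at least 20 bases or with a self-match of at least 70% at a shift of 3 to 60 bp were counted as repeats. They made up 6 of the 23 WT sites (26.1%) against 19.5% of all sites called in WT, and 1 of the 32 KO sites (3.12%) against 2.72% of all sites called in KO. The 6 WT sites included 4 of the 9 Ppara sites, whereas the Thrb site printed above fell short of the 70% and was not among them.

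The response elements of RXR dimers were found at few of the sites, as at few of all sites. The exact hexamer AGGTCA, read on both strands within 100 bp of the summit, was present at 7 of the 55 sites (12.7%) and at 10.2% of all sites. DR1 (AGGTCANAGGTCA, the element of PPAR with RXR), with at most 2 mismatches, was present at 2 of 55 sites (3.64%) and at 2.25% of all sites. DR4 (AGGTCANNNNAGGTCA, the element of LXR or TR with RXR), with the same allowance, was present at 0 of 55 sites and at 1.73% of all. Both DR1 matches were at KO sites, and 0 of the 23 WT sites had one, too few sites to tell apart from the 2.25% of all sites. No peak overlapped any of the 18 RefSeq promoters of the 10 genes (GRCm38.p6, 250 bases before to 50 after a start). The share of all promoters under a peak was not counted, so this count cannot be called particular to these genes. The hexamer was present in 5 of these 18 promoters (27.8%) and in 16.3% of all 32851 promoters of the table. These matches describe letters only and mark no binding site. Summits within 1 kb of any annotated start of a member numbered 2 in WT and 20 in KO livers. Of the KO summits, 19 lay in the Rxrb window, in exons of Rxrb or of the neighboring gene Slc39a7. The other 1 lay in the Nr1h3 window, in an exon of a neighboring gene. The share over all gene windows was not counted.

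Among the RXR genes themselves, Rxra, which encodes the main RXR of hepatocytes, was nearly free of peaks. Its window of 92.5 kb was longer than 86.6% of all windows. WT Pio replicate 3 had 1 peak there, at a fold enrichment of 3.64, and this was 1 of the short-fragment libraries. KO Pio replicate 3 had 2, at 3.67 and 3.75, and KO HFD-Pio replicate 3 had 1 in a coding exon, at 3.81. No 2 of these 4 peaks overlapped, and 39.8% of all windows were called in fewer libraries. At each of these summits 3 tags overlapped.

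Rxrb, which encodes RXRβ, was the only member called in every liver of a group. The gene spans chr17:34031812-34038399 and its window chr17:34026812-34039399, and the window had a peak in 5 of 5 livers of each KO group and in 0 of 20 WT livers. The window was called in more libraries than 81.2% of all windows. The livers of KO Control had 3, 3, 4, 3 and 4 peaks, those of KO Pio 4, 2, 3, 7 and 5, those of KO HFD 3, 7, 5, 3 and 1, and those of KO HFD-Pio 1, 2, 7, 2 and 3. Ranges overlapped among the 4 KO groups. The highest fold enrichment was 4.45 to 5.98 in KO Control, 5.16 to 6.39 in KO Pio, 3.51 to 7.50 in KO HFD and 4.04 to 7.44 in KO HFD-Pio, so that these ranges overlapped too.

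Most of these peaks belonged by position to other genes. Slc39a7, which encodes a zinc transporter, lies head to head with Rxrb at chr17:34028269-34031682 on the minus strand, inside the 5 kb taken upstream. It held 54 of the 72 summits (75.0%), at a fold enrichment of 2.75 to 7.50 (median 4.66). Rxrb itself held 16, at 2.72 to 7.50 (median 3.67), and H2-Ke6, the next gene, held 2. Exons held 67 of the 72 summits, in a window of which 62.6% was exon. The 16 inside Rxrb lay in its coding exons (10) or UTRs (6), and none lay in an intron. The other 5 lay in introns of Slc39a7. When only the gene body was counted, Rxrb had a peak in 3 of 5 KO Control, 4 of 5 KO Pio, 3 of 5 KO HFD and 2 of 5 KO HFD-Pio livers, 12 of 20 in all, while Slc39a7 had one in 19 of 20. WT livers had 0 of 20 in both bodies.

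Of the 4 sites called in at least 3 livers of a group, 3 lay in Slc39a7. The site at chr17:34028285-34029089 was called in 5 KO Control, 3 KO Pio, 3 KO HFD and 4 KO HFD-Pio livers, at a mean fold enrichment of 4.70. The site at chr17:34029386-34030425 was called in 4, 4, 4 and 2 livers of these groups (mean 4.94), and the site at chr17:34030484-34031293 in 2, 4, 2 and 3 (mean 4.81). The only such site within Rxrb, at chr17:34037400-34038329 over its last coding exon and UTR, was called in 1, 3, 2 and 1 livers (mean 3.44). The strongest Rxrb site, the coding exon printed above, was called in KO HFD replicate 2 at 7.50 with 7 tags and in KO Control replicate 5 at 5.17 with 5 tags. None of the sites had a peak in a WT liver.

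**Figure D2:**
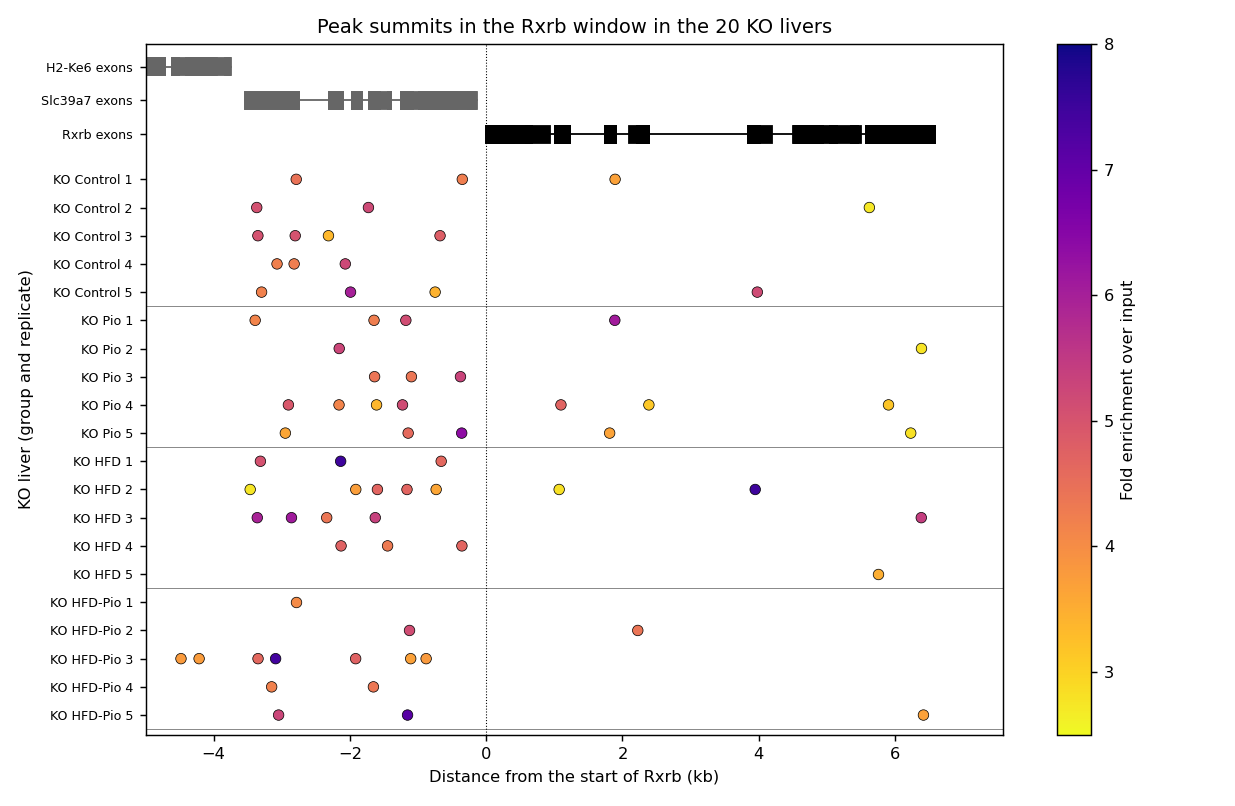
Summits of the peaks in the Rxrb window in the 20 KO livers (rows), by distance from the start of Rxrb (kb) and colored by fold enrichment over input, with exons of Rxrb, Slc39a7 and H2-Ke6 drawn above. Most summits (54 of 72) lie left of the start, over Slc39a7, and 16 lie over exons of Rxrb.

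Rxrg, the RXR of muscle and brain, was called once in WT livers and 6 times in KO livers. WT Control replicate 4 had an intronic peak at a fold enrichment of 4.36 (5 tags), the one beside the TG run. KO Pio replicates 1, 2 and 4 had 1 peak each, at 2.82, 3.77 and 2.76. KO HFD replicates 1 and 3 had 1 each, at 6.62 and 3.75, and KO HFD-Pio replicate 5 had 1 at 3.69. KO Control livers had none. The peak at 6.62, in the UTR at the end of the gene, was the strongest outside the Rxrb window, and 4 of the 6 KO summits lay in Rxrg exons. The 3 KO Pio peaks fell at 2 sites, of which chr1:167630987-167631300 was shared by replicates 1 and 4 with 2 tags each. Beside these calls, 1 or 2 of 4 skeletal muscle markers and 3 to 5 of 7 neural markers had an exonic peak in each KO liver, KO Control included. In WT livers, 1 or 2 of the muscle markers had one in HFD-Pio and 0 or 1 in Pio, where Rxrg had no peak. Their part in the result was not tested.

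Among the PPAR genes, Ppara, which encodes the receptor that drives fatty acid oxidation in hepatocytes, had peaks in 8 of 20 WT and 0 of 20 KO livers. In WT Control, replicates 2 and 4 had 1 each, at a fold enrichment of 5.22 and 3.49. In WT Pio, replicate 2 had 1 at 3.74, replicate 3 had 2 at 2.73 each and replicate 5 had 1 at 2.66. WT HFD replicate 3 had 1 at 3.72, and in WT HFD-Pio replicates 3 and 4 had 1 each, at 3.52 and 4.75. The 9 peaks were at 9 different sites, 8 in introns and 1 upstream of the gene. Every WT group also had livers without a peak, so the groups overlapped. In their own libraries these peaks had a higher fold enrichment than 2.07% to 80.1% of the peaks. The 3 WT Pio libraries with a peak were the 3 with short fragments, and the other 2 WT Pio livers had none. Over the 10 windows, peaks were 45 to 111 bp wide in the 6 short-fragment libraries and 184 to 465 bp in the other 14 WT libraries. The part of fragment length in these calls was not tested.

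Ppard, which encodes the widely expressed PPARδ, had 1 WT peak, in an intron in WT HFD replicate 3 at 3.72. In KO livers it had 3, at 3.71 in KO Pio replicate 4 and at 6.39 and 2.86 in KO HFD-Pio replicates 1 and 3. The one at 6.39, with 6 tags, was in the UTR at the end of the gene, and the others were intronic. No position was called in more than 1 liver.

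**Figure D3:**
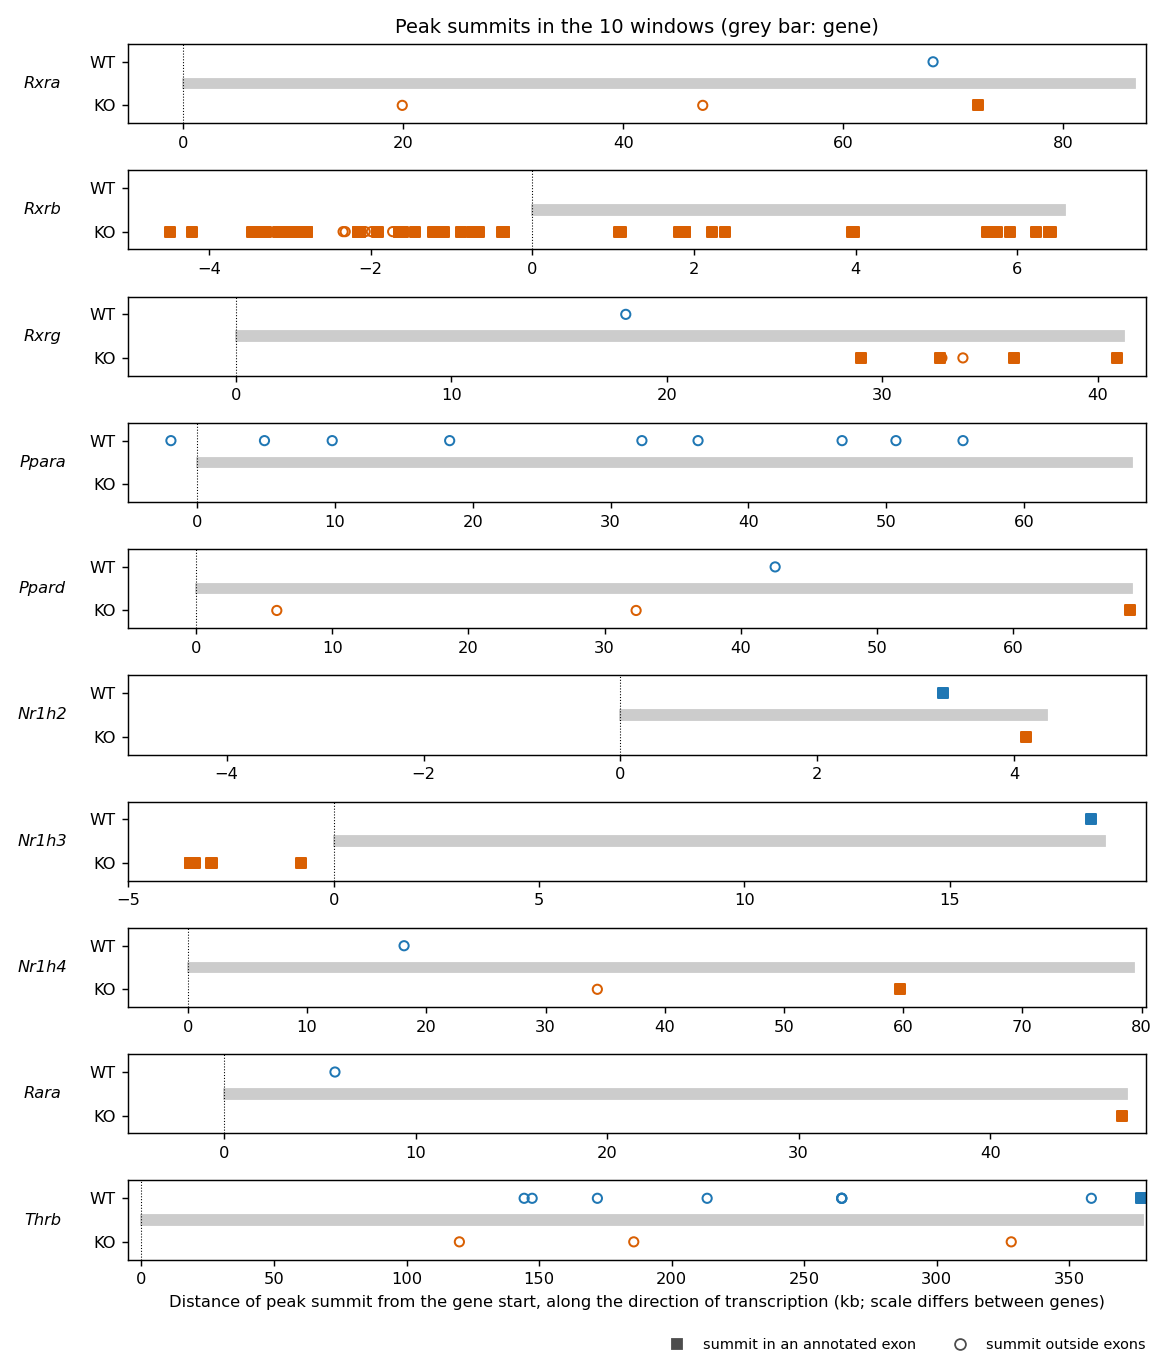
Peak summits in the 10 gene windows by distance from the gene start (kb, a separate scale for each gene), WT above and KO below the grey gene bar, with filled squares for summits in annotated exons and open circles for others. WT summits are mostly open (22 of 25), KO summits are mostly filled (82 of 97), and those of Ppara spread over the gene without stacking.

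The sterol and bile acid receptors were called in 2 to 5 libraries each. Nr1h3 (LXRα) had 1 WT peak, in its own coding exon in WT HFD-Pio replicate 1 at 2.81. Its 6 KO peaks, in KO Control replicate 3, KO Pio replicates 2 and 5 and KO HFD-Pio replicate 1, were at 2.69 to 4.50. All 6 had their summit in exons of Acp2, a lysosomal phosphatase gene that starts beside Nr1h3 at chr2:91202885, and 0 KO livers had a peak in the body of Nr1h3. The body of Acp2 was called in 17 of 20 KO and 1 of 20 WT livers. Nr1h2 (LXRβ) had 1 peak in WT Pio replicate 1 at 3.79 and 1 in KO HFD-Pio replicate 3 at 4.61, both in exons. Nr1h4 (FXR) had 1 intronic peak in WT HFD-Pio replicate 4 at 2.86 and 2 in KO HFD-Pio replicate 1, at 2.82 in a coding exon and 3.75 in an intron. No WT liver therefore had an LXR or FXR gene peak above 3.79. The WT peaks of Nr1h3 and Nr1h4 came from short-fragment libraries, with 2 tags each and a −log10 q of 0.719 and 0.929.

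Rara, the retinoic acid receptor gene, had a peak in 2 livers, in an intron in WT HFD-Pio replicate 5 at 2.71 and in the UTR in KO HFD replicate 4 at 3.62. The WT peak of Rara came from a short-fragment library, with 2 tags and a −log10 q of 0.128. Thrb, which encodes the main thyroid hormone receptor of liver, was the longest member, with a window of 383.8 kb that exceeded 98.2% of windows. It had peaks in 4 of 5 WT Control, 2 of 5 WT Pio, 1 of 5 WT HFD and 2 of 5 WT HFD-Pio livers. Fold enrichment in WT Control was 3.06, 4.47, 4.30 and 4.25 in replicates 1, 2, 3 and 5. It was 3.03 and 2.82 in WT Pio replicates 1 and 5, 3.08 in WT HFD replicate 1, and 4.69 and 3.52 in WT HFD-Pio replicates 1 and 3. In KO livers it was 3.78 in KO Control replicate 5, 2.82 in KO Pio replicate 5 and 2.82 in KO HFD-Pio replicate 1. Of the 12 Thrb peaks 11 were intronic. The repeat-bearing site at chr14:17924229-17924742 was called in WT Control replicates 1 and 2 and in WT HFD replicate 1, with 3 to 5 tags and a −log10 q of 0, 2.17 and 0.212, respectively.

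**Figure D4:**
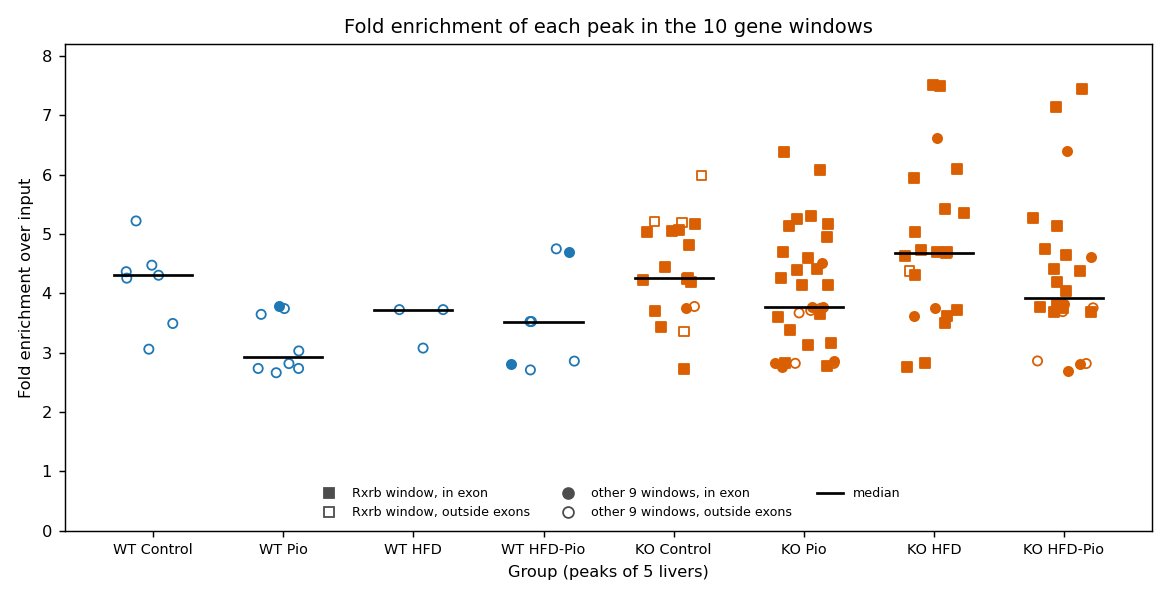
Fold enrichment over input of each of the 122 peaks by group (blue WT, orange KO), with squares for the Rxrb window, circles for the other 9, filled symbols for summits in exons and a black bar at the group's median. WT peaks lie between 2.66 and 5.22, and the KO peaks above 6 are all in exons.

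Set against length, the mean density of peaks in the 10 windows was below that of all gene windows in 7 of the 8 groups. The 10 windows spanned 858.4 kb in all. Exons made up 6.27% of their bases, against 9.55% over all gene windows, and the part of this difference was not tested. In WT livers the density was 1.63 ± 0.638 peaks per Mb (SD, n = 5) for Control, 1.86 ± 1.33 for Pio, 0.699 ± 1.04 for HFD and 1.63 ± 1.04 for HFD-Pio. Over all windows it was 1.94 ± 1.91, 6.51 ± 5.47, 0.456 ± 0.173 and 5.36 ± 3.82 in these groups. By median the order was reversed in WT Control (1.16 for the 10 windows, 0.781 for all) and in WT HFD (0 and 0.445). Livers of WT Control and WT Pio overlapped in both densities. In KO Control, KO Pio, KO HFD and KO HFD-Pio the density was 4.43 ± 1.28, 7.46 ± 2.27, 5.13 ± 2.68 and 5.59 ± 3.90 against 15.2 ± 5.96, 20.4 ± 2.86, 16.9 ± 6.26 and 18.4 ± 1.70 over all windows. For the receptor windows, livers of KO Control reached up to 5.82 peaks per Mb and those of KO Pio started at 5.82, so that these ranges met. These are given as a description, since the same libraries stand behind both densities.

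**Figure D5:**
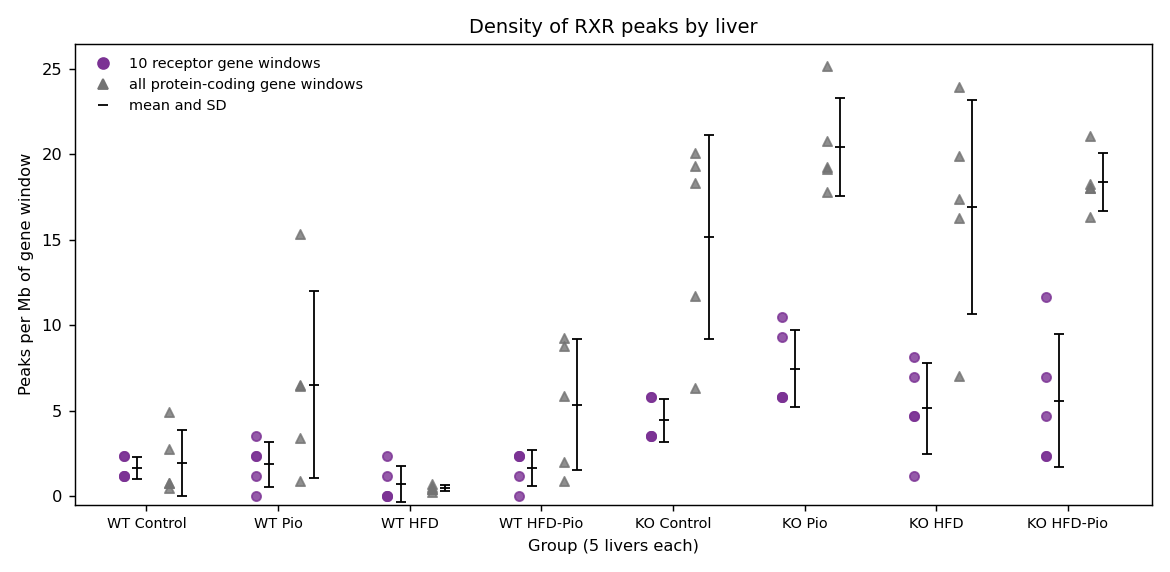
Peaks per Mb of gene window in each liver by group, for the 10 receptor windows (circles) and all protein-coding windows (triangles), with mean and SD. The receptor windows lie below all windows in the 4 KO groups, where means are 4.43 to 7.46 against 15.2 to 20.4 peaks per Mb.

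The first question of the design was whether Pio changed RXR binding at these genes. A gene counted as gained in a group if 3 or more of its 5 livers, and none of the 5 compared with them, had a peak in the window, and as lost in the opposite case. Numbers of livers were compared by two-sided Fisher's exact tests with Benjamini-Hochberg adjustment over all genes with a peak in either group. With Pio on control diet in WT livers, 0 of the 5 members with a peak were gained and 0 lost, where 16.2% of 12415 genes were gained and 0.113% lost. With Pio on HFD in WT livers, 0 of 6 were gained and 0 lost, against 19.8% and 0.00966% of 10349 genes. Ppara was called in 3 WT Pio and 2 WT Control livers and in 2 WT HFD-Pio and 1 WT HFD livers, and Thrb in 2 and 4 and in 2 and 1, so that no member separated the groups. Without the short-fragment libraries, Ppara had a peak in 0 of 2 WT Pio and 1 of 2 WT HFD-Pio livers and Thrb in 1 of 2 each. The Fisher test called 0 members and 0% of all genes at an adjusted p below 0.05 in both comparisons, while 1413 and 765 genes had an unadjusted p below 0.05.

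In KO livers Pio gained 1 of 6 members on control diet, Rxrg, with 3 against 0 livers (two-sided Fisher's exact p = 0.167, adjusted p = 1). The share of all genes was 1.7% gained and 0.302% lost, and 0 members were lost. This call was lost when KO Pio replicate 1, 2 or 4 was left out. On HFD 0 of 9 members were gained or lost with Pio, against 0.996% and 0.581% of genes. The Fisher test again called 0% of genes in either comparison, with 117 and 61 genes at an unadjusted p below 0.05.

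The second question was that of diet. HFD against Control gained 0 and lost 0 of 4 members in WT, against 0.0483% and 3.2% of genes, and 0 and 0 of 5 in KO, against 0.968% and 0.442%. HFD-Pio against Pio gained 0 and lost 0 of 7 members in WT, against 0.403% and 0.752% of genes, and 0 and 0 of 8 in KO, against 0.527% and 0.983%. The largest difference was that of Thrb in WT, with 1 HFD and 4 Control livers (two-sided Fisher's exact p = 0.206, adjusted p = 1). Without WT HFD replicate 1 it was 0 against 4 livers and counted as lost. The Fisher test called 0% of genes in these 4 comparisons, with 32, 34, 11 and 82 genes at an unadjusted p below 0.05 for HFD in WT, HFD in KO, HFD-Pio in WT and HFD-Pio in KO.

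The third comparison was that of genotype. Rxrb was gained in KO livers under each of the 4 treatments, with 5 against 0 livers, which gives the smallest p that 5 against 5 livers allow (two-sided Fisher's exact p = 0.00794). The adjusted p was 0.0527 for Control, 0.0778 for Pio, 0.0322 for HFD and 0.0800 for HFD-Pio, so that the difference passed the threshold under HFD alone, and whether it differed between treatments was not tested. With the q cutoff of KO livers applied to all libraries, the adjusted p was 0.0446, 0.0549, 0.0294 and 0.0460. Every gene called in 5 against 0 livers has the same p and adjusted p in a comparison. The share of all genes past the test at this cutoff is not given here, so these values do not set Rxrb apart. Gained genes made up 33.9%, 17%, 51.4% and 17.8% of all genes with a peak in these comparisons, and lost genes 0.703%, 3.79%, 0.256% and 2.77%. Genes past the Fisher test made up 0%, 0%, 24.6% and 0%. The members gained were 1 of 5, 2 of 8, 1 of 6 and 1 of 10. The other member gained was Rxrg under Pio, with 3 against 0 livers (two-sided Fisher's exact p = 0.167, adjusted p = 0.514).

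Ppara was the only member lost, under Pio, with 0 KO and 3 WT livers (two-sided Fisher's exact p = 0.167, adjusted p = 0.514). With the q cutoff of KO livers applied to WT as well, 1 of these 3 WT livers kept its call, and without the short-fragment libraries 0 of 2 WT Pio livers had one. Thrb was called in 1 KO Control and 4 WT Control livers, a difference that did not pass the test (two-sided Fisher's exact p = 0.206, adjusted p = 0.480). With the gene body alone, Rxrb was called in 3, 4, 3 and 2 KO livers against 0 WT livers under Control, Pio, HFD and HFD-Pio, and the adjusted p was 0.421, 0.205, 0.316 and 0.894. By the count of livers Rxrb itself thus remained gained under Control, Pio and HFD and not under HFD-Pio, and it passed the Fisher test under none of them. The share of all genes gained with bodies alone is not given here, so these calls do not set Rxrb apart. The pattern of the whole window, 20 KO and 0 WT libraries, was shared exactly by 361 other genes, of which the first by name were 1110017D15Rik, 1700001K19Rik and 1700029I15Rik.

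Thrb was the other member called in at least 10 libraries, and its pattern was most like those of Hs3st5 and Ryr2, with a Jaccard index over the 40 libraries of 0.500 each, and Bri3, with 0.471. Hs3st5 shared 7 libraries with Thrb, Ryr2 11 and Bri3 8.

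Changes in strength could hardly be examined. The planned test was limma on centered log2 fold enrichment at sites called in all 10 livers. Comparisons had 6 to 3251 such sites, and 0 of these lay in the 10 windows. In 3 of the 8 comparisons there were fewer than 10 sites, and no fit was made. These were Pio on either diet and HFD against Control, all in WT livers. With sites called in at least 4 of 5 livers of both groups, 1 member site entered, the one over Slc39a7 at chr17:34029386-34030425. The difference in log2 fold enrichment was −0.16 ± 0.23 (SE) for Pio minus Control in KO livers (limma adjusted p = 0.972, n = 4 and 4) and 0.24 ± 0.24 for HFD minus Control (limma adjusted p = 0.985, n = 4 and 4).

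Other receptors that pair with RXR, and coregulators, were counted in the same way. Of 9 further partner receptors, Pio gained 0 of the 4 with a peak in WT livers fed control diet and 2 of the 6 with a peak on HFD, where 16.2% and 19.8% of all genes were gained. The 2 were Pparg, called in 3 WT HFD-Pio and 0 WT HFD livers, and Rarb, the RARβ gene, called in 4 and 0. With Pio 0 of the 9 passed the adjusted Fisher test. On control diet Pparg was called in 4 WT Pio and 2 WT Control livers and Rarb in 4 and 1. All 3 short-fragment libraries of either group with Pio had a peak at both genes, and the other 2 had it at Pparg in 1 (WT Pio) and 0 (WT HFD-Pio) and at Rarb in 1 and 1. Pparg was called in 1 of 20 KO livers, in the KO Pio group. In KO livers Thra, the TRα gene, was called in 20 of 20 livers and Nr4a2, an orphan receptor gene, in 17 of 20, against 2 and 0 of 20 WT livers. Pio gained and lost 0 of the 9 in KO livers on either diet. KO against WT gained 2 of 6, 2 of 7, 3 of 5 and 1 of 8 with a peak under Control, Pio, HFD and HFD-Pio, beside 33.9%, 17%, 51.4% and 17.8% of all genes, and Pparg was lost under HFD-Pio, as were 2.77% of genes. Of these only Thra under HFD, with 5 against 0 livers, passed the Fisher test.

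Of 12 coregulators, Pio gained 2 of the 11 with a peak in WT livers fed control diet, the coactivator genes Ncoa2 and Ppargc1a, each called in 3 against 0 livers. On HFD 5 of 11 were gained, namely Ncoa3 (3 against 0 livers), Ncoa6 (3 and 0), Med1 (4 and 0), Ep300 (4 and 0) and Crebbp (3 and 0), all coactivators. These shares stand beside the 16.2% and 19.8% of all genes, and 0 of the 12 passed the adjusted Fisher test with Pio. Short-fragment libraries gave 1 of the 3 calls of Ncoa2, 2 of the 3 of Ppargc1a and, on HFD, 2 or 3 of the 3 or 4 calls of each gene, and their part in the gains was not tested. In KO livers 10 of the 12 were called in 17 to 20 of the 20 livers, and Pio gained and lost 0 on either diet. KO against WT gained 4 of 12, 1 of 11, 6 of 11 and 1 of 12 with a peak under Control, Pio, HFD and HFD-Pio, beside the same 33.9%, 17%, 51.4% and 17.8% of all genes, and those past the Fisher test under HFD included Ncoa3, Ncoa6 and Crebbp, with 5 against 0 livers each.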

How the data were processed

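RXR ChIP-Seq libraries of 40 livers, each with its own input, were sequenced as single reads and aligned to mm10 (GRCm38) by the authors with Novoalign (version not given in the sources used here). Peaks were called by the authors per library against its input with MACS2 2.1.1.20160309, with 1 tag kept per position, at a p cutoff of 0.001 (WT) or a q cutoff of 0.05 (KO), per the file headers. The deposited values used were fold enrichment (a ratio), pileup (a signal, in tags), −log10 p and −log10 q. A second deposited copy of each list was not used. Inputs carry no peak lists and were not analysed here. Groups came from the sample titles, and the 5 livers of a group came from separate animals.

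Summits of 1 peak were merged, which left 589904 peaks on chromosomes 1 to 19, X and Y. All peak ends fell within the chromosomes of the reference. Calls per gene window were compared over all protein-coding genes (scipy 1.17.1, Python 3.11.15, R 4.3.3, limma 3.58.1). limma was not fitted with fewer than 10 sites. The functions were tested on simulated data. Named genes were the 10 members, sites called in at least 3 livers of a group, the partner receptors, coregulators gained or lost with Pio in WT livers, and the 3 genes with the most similar calls to each member called in at least 10 libraries. The sequences shown, the count of repeats and the separate counts for short-fragment libraries were chosen after values were seen. Some items are not reported here. The members and lists were chosen with earlier results of these data known. Precision was limited by 2 to 8 tags at a summit, and no counting interval was computed because the lists hold no read counts per site. Alternatives were a common and a stricter q cutoff, a larger overlap, gene bodies alone, summits outside exons, lists of equal length, a stricter number of livers, a replicate block, and each liver left out in turn.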

Additional observations from a re-analysis of the deposited data

How the results depend on the processing

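Counts of members gained or lost matched those reported under 167 of 192 other settings and under 228 of 240 in which 1 liver was left out. Most of the counts reported were 0, so these totals say little about the calls that were made. The cause of the other shifts was not tested. With the lists shortened to equal length, gained members fell to 0 in KO Pio against KO Control and in all 4 comparisons of KO with WT, lost members fell to 0 in KO Pio against WT Pio, and Thrb counted as lost (1) in WT Pio against WT Control and in KO Control against WT Control. At a −log10 q of at least 5, gained members were 0 in KO Pio against KO Control and in KO against WT under Control, Pio and HFD-Pio, and lost members 0 under Pio. At a −log10 q of at least 1.3, lost members were 0 in KO Pio against WT Pio. With summits outside exons, gained members were 0 in KO Pio against KO Control and in KO against WT under Pio, HFD and HFD-Pio, and Rxrb counted as lost (1) in KO Pio against KO Control. With gene bodies alone, gained members were 0 in KO HFD-Pio against WT HFD-Pio. With at least 4 of 5 livers, gained members were 0 in KO Pio against KO Control and 1 in KO Pio against WT Pio, and lost members 0 in the latter.

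With 1 liver left out, gained members ranged from 0 to 1 in KO Pio against KO Control and from 1 to 2 in KO Pio against WT Pio. Lost members ranged from 0 to 1 in KO Pio against WT Pio (0 without WT Pio replicate 2, 3 or 5), in WT HFD against WT Control, in KO Control against WT Control (1, Thrb, without KO Control replicate 5) and in KO HFD-Pio against KO Pio (1, Rxrg, without KO HFD-Pio replicate 5). With the replicate block, in which livers of the same number were treated as pairs, Thrb counted as lost (1) in WT HFD against WT Control and in KO Control against WT Control, and the adjusted p of Rxrb under HFD was 0.254. The labels do not say whether livers of the same number share a batch. In each comparison 0 of 5 pairs had a correlation over 0.1, which cannot settle the question with so few pairs. Of 112 limma fits, alternatives included, 76 had enough sites, and a member site entered only in the 2 given above, so these fits do not bear on the members otherwise. Of 162 differences in livers called, 0 reversed, 11 were newly past the threshold, and 18 fell to no difference or were no longer past it. Rxrb had an adjusted p of 0.0348 to 1 over the alternatives for Control, 0.0485 to 0.740 for Pio, 0.0217 to 1 for HFD and 0.0460 to 1 for HFD-Pio.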
